A study of Mus musculus with 9 samples.

Results

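Heat shock proteins and their J-domain partners were followed across 3 mouse cell lines on 9 expression arrays (3 per line). The members were taken by gene symbol: the HSP70, HSP90, HSP60, HSP10, HSP110 and small heat shock families, the DnaJ families A, B and C, the heat shock factors Hsf1 and Hsf2, and the co-chaperones Bag1, Bag2, Bag3, Stip1 and Ahsa1. They came to 74 genes of the 19938 that had a probe set annotated with 1 gene symbol, and the probe set with the highest mean log2 level stood for each gene. Hsf1, Hsp90ab1 and Hspa1b have no probe set of their own symbol alone in the annotation used here, so they carry no value below.

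The P19 NTES7 line was derived from a blastocyst cloned by placing the nucleus of a P19 cell in an enucleated B6D2F1 oocyte, so it shares the nuclear genome of P19, and it is 1 line out of such a blastocyst. P19 is a line of mouse embryonal carcinoma cells, the stem cells of a teratocarcinoma, and R1 is a line of mouse embryonic stem (ES) cells. The array labels name the cloned line only as stem cells derived from P19, and it was taken here as P19 NTES7. All lines grew in ES medium with serum and leukemia inhibitory factor, and no line received a heat shock or another stress. The methods give a layer of mouse embryonic fibroblast feeder cells for P19 NTES7 and R1 and name none for P19, and they call the ES cells taken for RNA feeder free without saying how the feeders were removed. Line and feeder culture therefore cannot be told apart in any comparison with P19. The sources give no strain for the lines.

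Heat shock proteins hold unfolded proteins in solution, help them fold and pass damaged ones on for degradation. HSP70 proteins bind and release their clients in a cycle driven by ATP. J-domain proteins deliver the client and start ATP hydrolysis, and nucleotide exchange factors such as the HSP110 and BAG proteins reset the cycle. Some family members are made at all times, others are induced by heat shock factors, and each compartment of the cell has its own set. ES cells are known for high chaperone levels, which decline on differentiation.

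Most members differed little between the lines. With limma fitted over all 28853 probe sets, a gene was called where the Benjamini-Hochberg adjusted p was under 0.01 and the difference was over 2-fold. Between P19 NTES7 and P19, 2 of the 74 members were called, both higher in P19 NTES7, against 2.91% of all probe sets called and 1.55% called as higher. Between P19 and R1, 4 members were called, 1 with more and 3 with less signal in P19, against 7.4% of all probe sets (3.7% higher and 3.7% lower). Between P19 NTES7 and R1, 3 members were called, 1 with more and 2 with less signal in P19 NTES7, against 4.52% (1.99% higher and 2.53% lower). These comparisons share arrays, so their counts are not independent.

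Where only the p was used and not the fold, 8 members passed in P19 NTES7 minus P19 (2 higher, 6 lower), against 11.3% of all probe sets (4.71% higher, 6.59% lower). In P19 minus R1, 14 passed (9 higher, 5 lower), against 23.0% (12.9% higher, 10.1% lower). In P19 NTES7 minus R1, 12 passed (7 higher, 5 lower), against 17.1% (8.72% higher, 8.36% lower). The arrays of the lines did not overlap for 27, 32 and 35 members in these comparisons, against 34.4%, 45.3% and 36.6% of all probe sets. The share of members past the p was close to or under that of all probe sets, and 55 of the 74 passed in no comparison. The share whose arrays did not overlap was above that of all probe sets in P19 NTES7 minus R1. The median member difference was -0.01, 0.07 and 0.03 on the log2 scale, and that of all probe sets was 0.03, -0.03 and 0.01.

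The log2 difference stayed between -0.5 and 0.5 for 68 of 74 genes in P19 NTES7 minus P19, for 62 in P19 minus R1 and for 64 in P19 NTES7 minus R1. Of all probe sets, 88.4%, 79.6% and 84.2% did so. Members were mostly well measured, since 52 of them lay above the median of the array on all 9 arrays and 10 lay above it on none. Among the 55 members whose mean level lay above the median of all probe sets, 2, 4 and 3 were called, against 5.21%, 12.8% and 7.96% of all probe sets above that median.

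**Figure D1:**
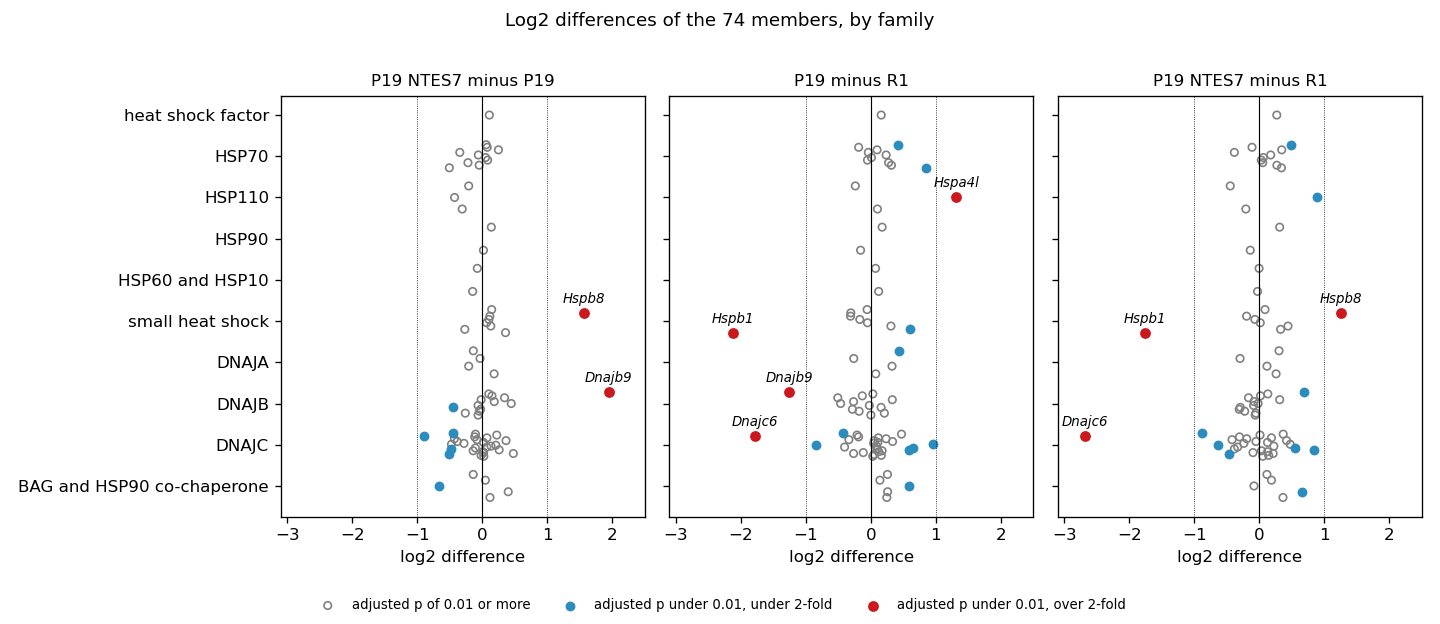
Log2 differences of the 74 members for P19 NTES7 minus P19, P19 minus R1 and P19 NTES7 minus R1, with 1 point for a gene and 1 line for a family. Most points lie between -0.5 and 0.5, and the named points are the 5 genes called in at least 1 comparison.

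The largest difference between P19 NTES7 and P19 among the members was that of Dnajb9. Dnajb9 (ERdj4) is a J-domain protein of the endoplasmic reticulum (ER) that works with the ER HSP70 Hspa5, helps to clear misfolded proteins and restrains the stress sensor IRE1. Its intensity was 321, 353 and 320.1 in P19 NTES7, 91.4, 88.4 and 79.2 in P19 and 188, 200.04 and 230.3 in R1. The arrays of the 3 lines did not overlap, with P19 NTES7 above R1 and R1 above P19. The log2 difference was 1.94 ± 0.11 (adjusted p = 4.31e-08) for P19 NTES7 minus P19, which is 3.84-fold. It was -1.25 ± 0.11 (adjusted p = 6.74e-07) for P19 minus R1, a level 2.38-fold lower in P19. P19 NTES7 also stood above R1, by 0.69 ± 0.11 (adjusted p = 0.000263), which passed the test at under 2-fold.

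The sequence before the start of Dnajb9 is shown because the gene moved most in the comparison of the cloned line with its donor line. The 250 bases upstream lie at chr12:44210069-44210318 on the minus strand (mouse genome GRCm38.p6, RefSeq). Capitals mark the separate parts of the ER stress element, CCAAT and CCACG or their complements ATTGG and CGTGG.
Dnajb9 upstream: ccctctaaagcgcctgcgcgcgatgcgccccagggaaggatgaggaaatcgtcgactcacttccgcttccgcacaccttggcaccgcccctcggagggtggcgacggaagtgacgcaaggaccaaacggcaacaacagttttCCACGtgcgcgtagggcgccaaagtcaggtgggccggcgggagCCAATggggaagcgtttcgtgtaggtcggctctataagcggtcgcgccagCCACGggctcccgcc
The whole ER stress element was searched as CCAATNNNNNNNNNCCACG and its complement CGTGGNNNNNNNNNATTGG, and the window of Dnajb9 did not hold it, nor the heat shock elements searched below. The parts alone are common: CCAAT or its complement stands in 37.4% of all promoter windows in the RefSeq table, and CCACG or its complement in 32.8%. A window runs from 250 bases before to 50 bases after a start, and 62 of the 74 members have at least 1 window.

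Small heat shock proteins, which bind unfolding proteins without ATP, gave the other member called between P19 NTES7 and P19. Hspb8 partners with Bag3 in the removal of misfolded proteins through autophagy. Its intensity was 114, 91.5 and 87.6 in P19 NTES7, 39.4, 36.2 and 25.2 in P19 and 37.9, 34.2 and 52.5 in R1. All 3 P19 NTES7 arrays lay above all arrays of P19 and R1, and the arrays of P19 and R1 overlapped. P19 NTES7 stood above P19 by 1.56 ± 0.18 (adjusted p = 4.84e-05) on the log2 scale, or 2.95-fold, and above R1 by 1.25 ± 0.18 (adjusted p = 0.000191), or 2.38-fold. The difference of P19 minus R1 was -0.31 ± 0.18 (adjusted p = 0.234). With log2(value + 16) in place of log2(value), the P19 NTES7 minus R1 difference was 0.99 and no longer over 2-fold. Bag3, the partner, had 80.9, 53.9 and 57.2 in P19 NTES7, 82.5, 57.3 and 47.9 in P19 and 65.9, 60.2 and 42.8 in R1, and the arrays overlapped in every comparison (adjusted p = 0.914, 0.667 and 0.599 in the order of the 3 comparisons above).

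Hspb1 (Hsp25 in the mouse) is a small heat shock protein that forms large oligomers and protects the actin skeleton. Its intensity was 53.5, 45.9 and 57.8 in P19 NTES7, 40.4, 44.8 and 37.4 in P19 and 201, 187 and 149 in R1. Every R1 array lay above every array of the other lines, and the arrays of P19 NTES7 and P19 did not overlap either. The log2 difference of P19 minus R1 was -2.12 ± 0.13 (adjusted p = 2.93e-08), a level 4.36-fold lower in P19. That of P19 NTES7 minus R1 was -1.77 ± 0.13 (adjusted p = 3.57e-07), 3.4-fold lower in P19 NTES7. The difference of P19 NTES7 minus P19, 0.36 ± 0.13 (adjusted p = 0.076), did not pass. The gene has 2 probe sets, and their log2 differences for P19 minus R1 were -2.13 and -2.12.

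Fibroblast markers also differed between the lines, and split P19, for which no feeders are given, from the other lines. The summed intensity of 23 measured fibroblast markers ran between 2369 and 2716 in P19 NTES7, between 1278 and 1312 in P19 and between 3431 and 3998 in R1. Of the 23, 13 were called in P19 NTES7 minus P19, all higher, 17 in P19 minus R1, all lower, and 5 in P19 NTES7 minus R1, all lower. With the p alone, 18 passed in P19 NTES7 minus P19 (17 higher, 1 lower), against 11.3% of all probe sets. The lower one was Sparc, at -0.46 ± 0.09 (adjusted p = 0.00289). In P19 minus R1 20 passed and in P19 NTES7 minus R1 13, all lower, against 23.0% and 17.1%. In P19, 15 of the 23 markers, among them Col3a1, Dcn and Postn, were below the array median on every array. In P19 NTES7 and in R1 only Fap and S100a4 were. Hspb1 shared the order of these sums, R1 highest and P19 lowest, although its difference of P19 NTES7 minus P19 did not pass. The order is not particular to fibroblast markers. Nanog, a pluripotent cell marker, averaged 913 in R1, 627 in P19 NTES7 and 178 in P19. Zfp42, Esrrb, Dppa4 and the member Dnajc21 had the order too, while Pou5f1 and Utf1 did not. Hspb8 was called higher in P19 NTES7 than in R1, and no fibroblast marker was called higher there. Dnajb9 was also lowest in P19 but highest in P19 NTES7, and Cryab, outside the members, had the order of the sums. The part of fibroblasts in the levels of these or other genes was not tested. In these bulk samples a difference in the share of cells cannot be told apart from a difference in RNA per cell. The summed intensity of 6 muscle markers ran between 131 and 135 in P19 NTES7, between 97.3 and 109 in P19 and between 112 and 235 in R1. The pluripotent cell type named by the labels was checked with 10 markers, whose summed intensity ran between 5030.2 and 5697 in P19 NTES7, between 5885 and 6216 in P19 and between 7405 and 7548 in R1. Of the 10, 4 were called in P19 NTES7 minus P19 (3 higher, 1 lower), 4 in P19 minus R1, all lower, and 4 in P19 NTES7 minus R1, all lower. Among them, Zfp42 was 14.9-fold and Esrrb 24.9-fold lower in P19 than in R1, and Utf1 was 8.1-fold lower in P19 NTES7 than in R1. With the p alone, 7 passed in P19 minus R1 (2 higher, 5 lower) and 7 in P19 NTES7 minus R1 (1 higher, 6 lower). Of all probe sets, 23.0% and 17.1% did so. Pou5f1 and Lin28a were higher in P19 than in R1, by 0.58 and 0.77 on the log2 scale. Lin28a was also higher in P19 NTES7 than in R1, by 0.65, and Sall4 passed in no comparison. Esrrb was the marker below the array median on every P19 array. Of 8 markers of primitive and visceral endoderm, Gata6 was called, in P19 NTES7 minus P19 at 1.03 ± 0.10 (adjusted p = 7.84e-06). In that comparison Gata4 passed as higher, at 0.80 ± 0.12 (adjusted p = 0.000469), and Dab2 as lower, at -0.73 ± 0.14 (adjusted p = 0.00244). Sox17, Afp, Ttr and Sox7 lay below the array median on every array. The summed intensity of the 8 ran between 156 and 162 in P19 NTES7, between 153 and 165 in P19 and between 137 and 153 in R1.

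Sequence around heat shock elements is shown for the small heat shock genes that were called. Heat shock factors bind repeats of GAA and its complement TTC, and an inverted pair was searched as GAANNTTC or TTCNNGAA, which covers both strands. Capitals mark the element in 30 bases of GRCm38.p6.
Hspb1: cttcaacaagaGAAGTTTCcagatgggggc
Hspb1: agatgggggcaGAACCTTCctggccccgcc
Hspb8: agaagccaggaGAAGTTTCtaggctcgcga
The Hspb1 stretches lie at chr5:135887791-135887820 and chr5:135887811-135887840 on the plus strand, before the start, and the Hspb8 stretch at chr5:116422844-116422873 on the minus strand, just after the start. An inverted pair stood in 15.1% of the 32851 promoter windows of all genes and in 17 of the 79 windows of the members (21.5%), from 15 genes. The genes with the element thus included called members and members that did not pass, such as Hspa1a, Bag3 and Dnaja1.

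Other small heat shock genes differed less. Hspb11, an intraflagellar transport subunit in spite of its name, had 35.8, 41.1 and 33.6 in P19 NTES7, 44.1, 39.6 and 49.5 in P19 and 29.9, 30.4 and 27.7 in R1. Its arrays in P19 lay above those in R1, and P19 minus R1 was 0.59 ± 0.11 (adjusted p = 0.000918). The 5 further members, Hspb2, Hspb3, Hspb6, Hspb7 and Hspb9, several of which are known from muscle or testis, averaged between 8.18 and 18.1 in all lines. None of the 5 passed in any comparison, and Hspb2 had the lowest adjusted p, 0.035 for P19 NTES7 minus R1.

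The largest member difference of all was that of Dnajc6. Dnajc6 (auxilin) brings the constitutive HSP70 Hspa8 to clathrin-coated vesicles so that the coat is removed, and it is known mainly from neurons. Its intensity was 14.5, 14.4 and 15.9 in P19 NTES7, 29.03, 26.3 and 28.5 in P19 and 88.2, 89.4 and 111 in R1. The 3 lines did not overlap, with P19 NTES7 lowest and R1 highest. The log2 difference was -2.68 ± 0.11 (adjusted p = 1.18e-09) for P19 NTES7 minus R1, 6.41-fold lower in P19 NTES7, and -1.78 ± 0.11 (adjusted p = 3.04e-08) for P19 minus R1, 3.43-fold lower in P19. P19 NTES7 was also lower than P19, with a difference of -0.90 ± 0.11 (adjusted p = 5.71e-05), which passed at under 2-fold. With log2(value + 16) the differences were -1.85 for P19 NTES7 minus R1, -1.35 for P19 minus R1 and -0.51 for P19 NTES7 minus P19, all still past the test. All P19 NTES7 arrays of this gene lay below the median of their array, and all P19 and R1 arrays lay above it.

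The HSP110 proteins serve HSP70 as nucleotide exchange factors. Hspa4l, a family member known for its high level in testis, had 53.9, 43.7 and 41.8 in P19 NTES7, 57.5, 57.8 and 72.1 in P19 and 24.7, 25.8 and 24.5 in R1. All 3 lines were apart, with P19 highest and R1 lowest. P19 stood above R1 by 1.31 ± 0.12 (adjusted p = 1.65e-06), or 2.49-fold, and P19 NTES7 stood above R1 by 0.89 ± 0.12 (adjusted p = 9.96e-05). The difference of P19 NTES7 minus P19, -0.43 ± 0.12 (adjusted p = 0.0246), did not pass. With log2(value + 16) the P19 minus R1 difference was 0.93, which is under 2-fold.

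The other HSP110 members did not pass. Hspa4 had 724, 642 and 621 in P19 NTES7, 813, 869 and 778 in P19 and 749, 748 and 796 in R1, and P19 NTES7 lay below P19 on every array (adjusted p = 0.0396). Hsph1, the heat-inducible member, had 334, 307 and 259.8 in P19 NTES7, 391, 338 and 312 in P19 and 453, 478 and 314 in R1. R1 replicate 3 lay apart from the other R1 arrays for this gene, and P19 NTES7 minus R1 was -0.45 ± 0.16 (adjusted p = 0.0515) with it and past the test without it.

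**Figure D2:**
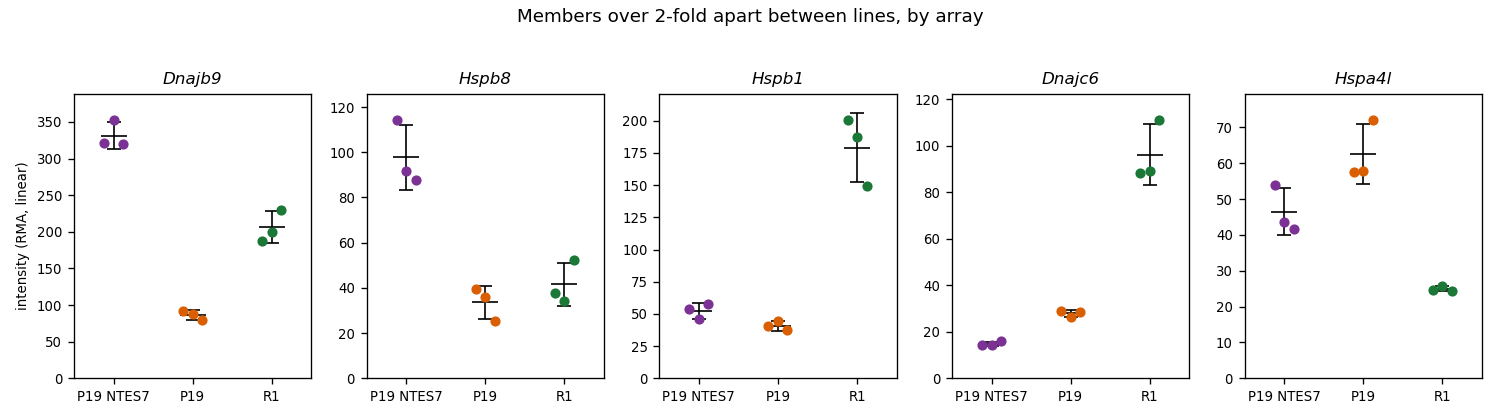
Intensity (RMA, linear scale from 0) of the 5 called members on each array. Points are arrays, and the bars give the mean ± SD of 3 arrays in P19 NTES7, P19 and R1. Dnajb9 and Hspb8 were highest in P19 NTES7, Hspb1 and Dnajc6 in R1 and Hspa4l in P19.

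Hsf2 was the heat shock factor among the members with a value. Heat shock factors are the transcription factors of the response, and Hsf2 is known for its part in development and in germ cells. Its intensity was 310.2, 286 and 277 in P19 NTES7, 254, 267 and 289.7 in P19 and 209.6, 219 and 307 in R1. R1 replicate 3 lay within the range of P19 NTES7 while the other R1 arrays lay below P19. The log2 difference was 0.11 for P19 NTES7 minus P19, 0.16 for P19 minus R1 and 0.27 for P19 NTES7 minus R1 (adjusted p = 0.651, 0.411 and 0.181 in that order), so none passed. Of the heat shock factors outside the members, Hsf4, Hsf5 and Hsfy2 lay below the array median on all 9 arrays, and Hsf5 passed as higher in P19 NTES7 minus R1, at 0.45 ± 0.11 (adjusted p = 0.00725).

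The cytosolic HSP70 and HSP90 genes were nearly level. Hspa8, the constitutive HSP70, averaged 3916 ± 291 in P19 NTES7, 3712 ± 74.1 in P19 and 4231 ± 48.2 in R1 (SD, n = 3 each). R1 lay above P19 on every array, but the log2 difference of P19 minus R1 was only -0.19 ± 0.09 (adjusted p = 0.138). Hsp90aa1, the inducible cytosolic HSP90, averaged 4407 ± 149 in P19 NTES7, 4353 ± 26.9 in P19 and 4859 ± 37.1 in R1. P19 minus R1 was -0.16 ± 0.09 (adjusted p = 0.186) and P19 NTES7 minus P19 was 0.02 ± 0.09 (adjusted p = 0.923). Hspa8 and Hsp90aa1 have 3 probe sets each, none of which passed in any comparison, and signal from near-identical copies or pseudogenes cannot be told apart in them.

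The stress-inducible HSP70 was low in every line. Hspa1a had 15.2, 16.6 and 18.1 in P19 NTES7, 14.9, 16.1 and 17.1 in P19 and 14.95, 15.8 and 17.2 in R1. The lines overlapped fully, and the log2 difference was 0.05 for P19 NTES7 minus P19, 0.01 for P19 minus R1 and 0.06 for P19 NTES7 minus R1. Dnajb1, the J-domain protein induced with it by heat, averaged 67.1 ± 8.35 in P19 NTES7, 69.9 ± 1.4 in P19 and 69.9 ± 3.1 in R1, with -0.07 for P19 NTES7 minus P19, -0.00 for P19 minus R1 and -0.07 for P19 NTES7 minus R1 on the log2 scale. The adjusted p was 0.735, 1 and 0.721.

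Of 10 HSP70 members, none passed in P19 NTES7 minus P19 with limma (2 had an unadjusted p under 0.05), 2 passed in P19 minus R1 and 1 in P19 NTES7 minus R1, against 11.3%, 23.0% and 17.1% of all probe sets. Hspa12a, a distant relative of HSP70, had 12.4, 14.05 and 13.5 in P19 NTES7, 15.1, 17.3 and 25.98 in P19 and 10.7, 9.89 and 11.1 in R1. P19 lay above R1 by 0.85 ± 0.16 (adjusted p = 0.000988), and P19 replicate 3 lay above the other P19 arrays. Its R1 arrays were below the array median. Hspa14, which binds ribosomes together with Dnajc2, averaged 226 ± 5.64 in P19 NTES7, 214 ± 7.08 in P19 and 223 ± 25.8 in R1. Hspa13 averaged 87.1 ± 14.9 in P19 NTES7, 101 ± 7.61 in P19 and 83.5 ± 7.06 in R1. Hspa2 and Hspa1l, which are known from testis, averaged between 10.9 and 17.5 in the lines. Hspa12b averaged between 9.17 and 11.4 in the lines. None of these last 5 passed.

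Of the mitochondrial members, Hspa9 and Dnajc11 passed. Hspa9 (mortalin) is the mitochondrial HSP70, which pulls proteins into the matrix and folds them there. Its intensity was 1818, 1867 and 1718 in P19 NTES7, 1776, 1697 and 1713 in P19 and 1311, 1364 and 1196 in R1. R1 lay below both other lines on every array, and P19 NTES7 and P19 overlapped. The log2 difference was 0.48 ± 0.09 (adjusted p = 0.00149) for P19 NTES7 minus R1 and 0.42 ± 0.09 (adjusted p = 0.00278) for P19 minus R1. For P19 minus R1 the adjusted p reached 0.0146 without P19 replicate 1, 0.0106 without P19 replicate 2 and 0.0105 without R1 replicate 1, and it was 0.0125 with quantile normalization.

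The mitochondrial HSP60 and its lid HSP10 did not pass. Hspd1 averaged 1668 ± 39.9 in P19 NTES7, 1849 ± 39.1 in P19 and 1703 ± 74.4 in R1, and the log2 difference was -0.15 for P19 NTES7 minus P19, 0.12 for P19 minus R1 and -0.03 for P19 NTES7 minus R1. Hspe1 averaged 781 ± 122 in P19 NTES7, 817 ± 22.1 in P19 and 779 ± 45.1 in R1, with -0.08 for P19 NTES7 minus P19, 0.07 for P19 minus R1 and -0.01 for P19 NTES7 minus R1. In these probe sets, no adjusted p of either gene was under 0.292, and no unadjusted p was under 0.05. Each has 2 probe sets that target near-identical transcripts, and the second set of each did not pass either. The second Hspd1 set differed more, at -0.27 ± 0.10 (adjusted p = 0.0931) for P19 NTES7 minus P19 and 0.22 ± 0.10 (adjusted p = 0.125) for P19 minus R1. Among the mitochondrial J-domain proteins, Dnaja3 averaged 90.6 ± 15.8 in P19 NTES7, 91.9 ± 2.05 in P19 and 110.3 ± 3.78 in R1, Dnajc15 averaged 35.3 ± 5.59 in P19 NTES7, 39.1 ± 7.84 in P19 and 34.3 ± 3.28 in R1, and Dnajc19 averaged 55.8 ± 4.77 in P19 NTES7, 53.1 ± 2.9 in P19 and 70.7 ± 9.71 in R1. None of these passed with all arrays in the fit, and P19 minus R1 of Dnajc19 was -0.40 ± 0.12 (adjusted p = 0.0168).

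Hspd1 and Hspe1 lie head to head and share 1 start region, which holds a longer heat shock element. Sequence is shown for the members whose window holds 3 inverted units, GAANNTTCNNGAA or TTCNNGAANNTTC, both strands included. These were Hspd1, Hspe1, Hsph1 and Dnajb6, in 6 of 79 member windows (7.59%), against 0.603% of all windows. Windows can overlap, so these are not separate sites. Hspd1 and Hspe1 share 1 site, the Hsph1 windows hold the same site, and so do the Dnajb6 windows. Every 3-unit element also holds the shorter inverted pair. Capitals mark the element and any unit that overlaps it.
Hspd1: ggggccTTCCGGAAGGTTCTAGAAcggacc
Hspe1: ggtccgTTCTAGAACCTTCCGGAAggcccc
Dnajb6: cagctccgaGAATCTTCCGGAAcgctagac
Hsph1: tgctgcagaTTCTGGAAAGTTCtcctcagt
The first pair are the strands of chr1:55088053-55088082, minus for Hspd1 and plus for Hspe1. The Dnajb6 stretch is chr5:29735843-29735872 on the plus strand and the Hsph1 stretch is chr5:149636280-149636309 on the minus strand, after the start. No gene of the 4 passed the test in any comparison of the fit reported here. Dnajb6, which keeps aggregation-prone proteins apart, had 29.8, 31.4 and 39.3 in P19 NTES7, 23.1, 26.6 and 29.4 in P19 and 33.6, 35.8 and 43.4 in R1. It came nearest in P19 minus R1, at -0.51 ± 0.14 (adjusted p = 0.0106), where the arrays did not overlap. That difference passed with quantile normalization, with only probe sets above the median mean level and with the replicate number as a block. It also passed without P19 NTES7 replicate 3.

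ER chaperones are induced together in the unfolded protein response. Hspa5 (BiP), the ER HSP70, had 827, 789.6 and 753 in P19 NTES7, 663, 653 and 679 in P19 and 564, 578 and 740.2 in R1. P19 NTES7 lay above both other lines on every array, and the log2 difference was 0.25 ± 0.11 (adjusted p = 0.156) for P19 NTES7 minus P19 and 0.34 ± 0.11 (adjusted p = 0.0379) for P19 NTES7 minus R1. Hsp90b1 (GRP94), the ER HSP90, had 1726, 1560.1 and 1394 in P19 NTES7, 1359.8, 1344 and 1541 in P19 and 1152, 1167 and 1463 in R1. For both genes R1 replicate 3 lay above the other R1 arrays, and neither passed with all arrays.

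The soluble ER J-domain proteins and Dnajc1 did not pass, apart from Dnajb9. Dnajc3, which assists Hspa5, had 86.9, 85.3 and 92.4 in P19 NTES7, 107, 91.8 and 83.1 in P19 and 107, 101 and 153 in R1, with P19 NTES7 below R1 on every array (log2 difference -0.42 ± 0.15 (adjusted p = 0.0513)). Dnajb11, another partner of Hspa5, averaged 91.3 ± 4.93 in P19 NTES7, 110.2 ± 15.1 in P19 and 95.04 ± 8.63 in R1. Dnajc10, an ER reductase with a J domain, averaged 204 ± 19.5 in P19 NTES7, 206 ± 12.2 in P19 and 186 ± 32 in R1, and Dnajc1 averaged 40.1 ± 5.9 in P19 NTES7, 39.3 ± 3.14 in P19 and 38.4 ± 1.23 in R1. These 4 passed in no comparison. Dnajb9 passed in all 3.

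The ER stress element stood in the windows of 3 members, Hspa5, Hsp90b1 and Dnajc3, which is 3.8% of member windows against 0.119% of all windows. The stretches are shown to set them beside the sequence of Dnajb9. Capitals mark the element.
Hspa5: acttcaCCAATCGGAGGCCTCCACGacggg
Hsp90b1: acaagcCCAATCGCAAGGAGCCACGcttcg
Dnajc3: ccacaaCCAATCAGCGCCAACCACGacccg
They lie at chr2:34772019-34772048 on the plus strand, chr10:86705633-86705662 on the minus strand and chr14:118937821-118937850 on the plus strand, all upstream of a start. The Hsp90b1 window holds another element, in the complement form, within chr10:86705528-86705557. It is also upstream and is not shown.

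Some member values turned on a single array. In R1 replicate 3, 7 members lay over 0.5 log2 from the mean of the other R1 arrays, and 6.77% of all probe sets did. In R1 replicates 1 and 2 no member did. In P19 replicate 3, 6 members did, against 2.68% of all probe sets, and each other P19 or P19 NTES7 array had between 0 and 3. Without R1 replicate 3, Hspa5, Hsf2 and Dnajc22 also passed in P19 NTES7 minus R1 as higher, Hsph1 and Dnajc19 as lower, and 17 members passed in place of 12. P19 minus R1 then had 15 in place of 14, and P19 NTES7 minus P19, through the shared estimate of spread, 11 in place of 8. Without P19 replicate 3 the counts were 9 in P19 NTES7 minus P19, 13 in P19 minus R1 and 12 in P19 NTES7 minus R1.

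**Figure D3:**
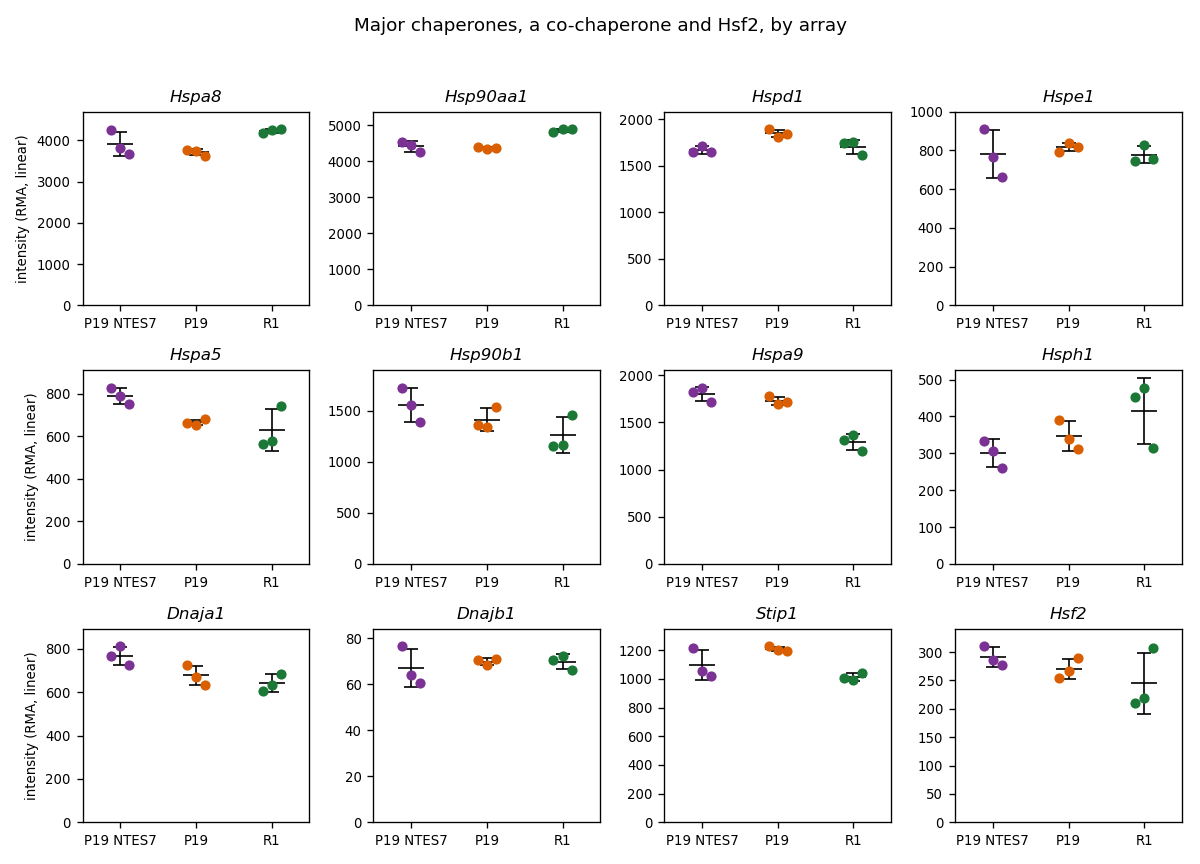
Intensity (RMA, linear scale from 0) of 12 members on each array: major chaperones, the co-chaperone Stip1 and the transcription factor Hsf2. Points are arrays, and bars give the mean ± SD of 3 arrays in P19 NTES7, P19 and R1. Of the 12, only Hspa9 passed the test, with R1 below the other lines. The raised R1 point of Hspa5, Hsp90b1 and Hsf2 and the lowered one of Hsph1 are R1 replicate 3.

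The general cytosolic J-domain proteins of family A varied little. Dnaja1 averaged 768 ± 43.3 in P19 NTES7, 677 ± 45.6 in P19 and 643 ± 39.9 in R1, and P19 NTES7 lay above both other lines on every array without passing (adjusted p = 0.244 against P19 and 0.0739 against R1). Dnaja2 averaged 434 ± 10.3 in P19 NTES7, 503 ± 36.7 in P19 and 401 ± 13 in R1. Its P19 minus R1 difference, 0.33 ± 0.09 (adjusted p = 0.0152), did not pass. It did pass with log2(value + 16), with only probe sets above the median mean level and with the trend and robust settings of limma. Dnaja4 had 16.6, 18.1 and 15.7 in P19 NTES7, 16.9, 19.2 and 19.4 in P19 and 13.6, 14.1 and 13.2 in R1, and P19 lay above R1 by 0.44 ± 0.10 (adjusted p = 0.00329). That difference no longer passed without P19 replicate 2 (adjusted p = 0.0192), P19 replicate 3 (0.0152) or R1 replicate 1 (0.0141). All R1 arrays of Dnaja4 lay below the array median.

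Of the 13 family B members, Dnajb9 and Dnajb14 passed. Dnajb14, an ER membrane protein, had 13.4, 14.03 and 12.5 in P19 NTES7, 17.8, 17.03 and 19.9 in P19 and 15.96, 15.9 and 17.2 in R1. P19 NTES7 was lower than P19, with a log2 difference of -0.45 ± 0.10 (adjusted p = 0.00507). That difference no longer passed when any 1 of the 6 arrays of these lines was left out (adjusted p between 0.0106 and 0.0233). Its P19 NTES7 arrays lay below the array median. Dnajb2, Dnajb4, Dnajb5 and Dnajb12 did not pass and had log2 differences between -0.27 and 0.33. Dnajb3, Dnajb7, Dnajb8 and Dnajb13, several of them known from testis, averaged between 8.11 and 14.8 in the lines and did not pass.

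Family C holds 26 members of diverse location, and 4 passed in P19 NTES7 minus P19, all lower, 6 in P19 minus R1 and 6 in P19 NTES7 minus R1. Of all probe sets, 11.3% (6.59% lower), 23.0% and 17.1% did so. Dnajc9, a histone chaperone, had 83.1, 67.6 and 76.3 in P19 NTES7, 105, 97.96 and 106 in P19 and 131, 142 and 143 in R1. Lines were ordered with P19 NTES7 lowest and R1 highest and did not overlap. The log2 difference was -0.88 ± 0.10 (adjusted p = 2.32e-05) for P19 NTES7 minus R1, -0.45 ± 0.10 (adjusted p = 0.0064) for P19 NTES7 minus P19 and -0.42 ± 0.10 (adjusted p = 0.00515) for P19 minus R1. The differences that involve P19 were less firm. P19 NTES7 minus P19 no longer passed without P19 replicate 1, 2 or 3, R1 replicate 2, or P19 NTES7 replicate 2 or 3 (adjusted p between 0.0115 and 0.0345). P19 minus R1 no longer passed when any 1 of the P19 and R1 arrays was left out (between 0.0102 and 0.0295). P19 NTES7 minus P19 also did not pass with only the arrays of these lines in the fit (adjusted p = 0.0103) or with quantile normalization (0.0139). P19 minus R1 did not pass with array medians subtracted (0.0105).

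Dnajc21, which helps to mature the large ribosomal subunit, had 213, 209 and 194 in P19 NTES7, 171, 185 and 177 in P19 and 314, 334 and 306 in R1. R1 lay above both other lines. P19 minus R1 was -0.84 ± 0.09 (adjusted p = 7.86e-06) and P19 NTES7 minus R1 was -0.63 ± 0.09 (adjusted p = 0.000158) on the log2 scale, while P19 NTES7 minus P19 was 0.21 ± 0.09 (adjusted p = 0.147). Dnajc16 and Dnajc18, ER membrane proteins, ran the other way. Dnajc16 had 93.1, 75.2 and 78.3 in P19 NTES7, 69.9, 67.5 and 67.9 in P19 and 42.4, 44.03 and 50.9 in R1, with 0.84 ± 0.11 (adjusted p = 6.01e-05) for P19 NTES7 minus R1 and 0.58 ± 0.11 (adjusted p = 0.000855) for P19 minus R1. Dnajc18 had 39.2, 37.6 and 38.4 in P19 NTES7, 40.8, 42.1 and 41.1 in P19 and 25.6, 24.5 and 28.97 in R1, with 0.55 ± 0.09 (adjusted p = 0.000646) and 0.65 ± 0.09 (adjusted p = 9.83e-05) for the same comparisons. R1 lay below the other lines on every array for both genes.

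Dnajc11, a protein of the mitochondrial membranes, had 132, 134 and 119 in P19 NTES7, 202, 175 and 172 in P19 and 176, 174 and 179 in R1. P19 NTES7 lay below both other lines on every array, with log2 differences of -0.51 ± 0.10 (adjusted p = 0.00229) against P19 and -0.46 ± 0.10 (adjusted p = 0.00317) against R1. The difference against P19 no longer passed without P19 replicate 1 (adjusted p = 0.0156) or P19 NTES7 replicate 3 (0.0122). The difference against R1 no longer passed without R1 replicate 1 (0.0135), R1 replicate 2 (0.013) or P19 NTES7 replicate 3 (0.015).

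Dnajc17 had 33.6, 36.4 and 34.6 in P19 NTES7, 51.4, 49.4 and 44.97 in P19 and 45.5, 41.2 and 50.3 in R1, and P19 NTES7 lay below P19 on every array, with a log2 difference of -0.48 ± 0.10 (adjusted p = 0.00486). This difference no longer passed without P19 replicate 1 or 2 or any P19 NTES7 array (adjusted p between 0.0123 and 0.0277). Dnajc22 had 13.2, 14.03 and 14.1 in P19 NTES7, 22.7, 17 and 18.2 in P19 and 9.37, 8.05 and 12.9 in R1, with P19 above R1 by 0.95 ± 0.16 (adjusted p = 0.000338). It was over 2-fold without P19 replicate 2 or R1 replicate 3, and its R1 arrays lay below the array median. Dnajc12, the member of family C with the highest P19 NTES7 minus P19 difference, had 37.97, 30.1 and 42.4 in P19 NTES7, 26.7, 22.05 and 30.6 in P19 and 26.6, 30.8 and 38.1 in R1, and the difference was 0.48 ± 0.16 (adjusted p = 0.0577). The arrays of these lines overlapped for Dnajc12.

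Further family C members with known general roles did not pass. Dnajc7, which links HSP70 and HSP90, averaged 429.8 ± 28.5 in P19 NTES7, 368 ± 21.6 in P19 and 427 ± 16.1 in R1. Dnajc13, an endosomal protein, averaged 746 ± 88.6 in P19 NTES7, 735 ± 54.8 in P19 and 797 ± 50.7 in R1. Dnajc8, a splicing factor partner, had 458, 378 and 292 in P19 NTES7, 395, 416 and 383 in P19 and 251, 238 and 396 in R1, with R1 replicate 3 far above the other R1 arrays. Dnajc2, the ribosome partner of Hspa14, averaged 150.1 ± 1.4 in P19 NTES7, 137 ± 2.37 in P19 and 129 ± 9.82 in R1, and P19 NTES7 lay above both other lines on every array with log2 differences of 0.13 and 0.22. Dnajc5, a chaperone of secretory vesicles, averaged 98.4 ± 5.38 in P19 NTES7, 107 ± 10.2 in P19 and 122 ± 11.3 in R1.

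Among the co-chaperones, Bag1 and Bag2 passed. BAG proteins bind HSP70 and release its nucleotide. Bag1 had 182, 168 and 153 in P19 NTES7, 133, 130.3 and 118 in P19 and 110.4, 104 and 104 in R1, and the lines did not overlap, with P19 NTES7 highest and R1 lowest. P19 NTES7 minus R1 was 0.66 ± 0.10 (adjusted p = 0.000224), P19 NTES7 minus P19 was 0.40 ± 0.10 (adjusted p = 0.0118) and P19 minus R1 was 0.26 ± 0.10 (adjusted p = 0.0633). P19 NTES7 minus P19 of Bag1 passed under 5 alternatives, among them quantile normalization and log2(value + 16). Bag2, an inhibitor of the ubiquitin ligase CHIP, had 17.6, 17.3 and 14.7 in P19 NTES7, 23.02, 30.96 and 25.1 in P19 and 17.8, 17.8 and 16.8 in R1. P19 lay above both other lines, by 0.58 ± 0.12 (adjusted p = 0.00185) over R1, and P19 NTES7 minus P19 was -0.66 ± 0.12 (adjusted p = 0.00144). The P19 minus R1 difference no longer passed without P19 replicate 2 (adjusted p = 0.0117).

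Stip1, which hands clients over to HSP90, averaged 1099 ± 104 in P19 NTES7, 1207 ± 17.1 in P19 and 1012 ± 27.4 in R1, and the log2 difference was -0.14 for P19 NTES7 minus P19, 0.25 for P19 minus R1 and 0.11 for P19 NTES7 minus R1 (adjusted p = 0.37, 0.0572 and 0.447). Ahsa1, the activator of the HSP90 ATPase, averaged 587 ± 20.4 in P19 NTES7, 542 ± 51.4 in P19 and 457 ± 22.2 in R1. P19 NTES7 lay above R1 on every array, by 0.36 ± 0.10 (adjusted p = 0.0149), which did not pass. It did pass with log2(value + 16), with only probe sets above the median mean level and with the trend and robust settings of limma.

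Chaperone genes outside the symbols above were read from lists for comparison. The share of all probe sets past the p, 11.3% in P19 NTES7 minus P19, 23.0% in P19 minus R1 and 17.1% in P19 NTES7 minus R1, applies to the counts of every list. Of 9 subunits of TRiC/CCT, the chaperonin that folds actin and tubulin, none was called. With the p alone, limma passed 0 in P19 NTES7 minus P19 (0 at an unadjusted p under 0.05) and 3 in each comparison with R1, all 3 higher: Cct4, Cct6a and Cct6b. All P19 NTES7 and R1 arrays of Cct6b lay below the array median. The median log2 difference of the 9 subunits was -0.07, 0.29 and 0.22 for P19 NTES7 minus P19, P19 minus R1 and P19 NTES7 minus R1, against 0.03, -0.03 and 0.01 over all probe sets. Of 6 prefoldin subunits, which deliver to TRiC, Pfdn1 and Pfdn5 passed in P19 minus R1, by 0.66 and 0.52, and Pfdn1 in P19 NTES7 minus R1, by 0.50.

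Of 16 HSP90 co-chaperones, 2 passed in P19 NTES7 minus P19, both lower, 6 in P19 minus R1 (3 higher, 3 lower) and 3 in P19 NTES7 minus R1, all lower. Sugt1, which works with HSP90 at the kinetochore, was the called gene. It had 119.9, 127 and 122 in P19 NTES7, 115, 114 and 83.7 in P19 and 244, 241 and 299 in R1, so R1 lay above both other lines, with -1.34 ± 0.13 (adjusted p = 2.98e-06) for P19 minus R1 and -1.08 ± 0.13 (adjusted p = 3.53e-05) for P19 NTES7 minus R1. Fkbp4, the HSP90 partner of steroid receptors, was lower in P19 NTES7 than in P19, with a log2 difference of -0.53 ± 0.09 (adjusted p = 0.00101), and higher in P19 than in R1, by 0.77 ± 0.09 (adjusted p = 1.68e-05). Of 10 HSP70 co-chaperones, Hyou1, the ER exchange factor, was higher than in R1 in P19 NTES7 by 0.87 ± 0.11 (adjusted p = 4.22e-05) and in P19 by 0.58 ± 0.11 (adjusted p = 0.000911). None of the 10 was called.

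Of 10 further genes tied to heat shock factors, Cryab and Clpb were called, both in P19 minus R1. Cryab, the small heat shock protein alpha-B-crystallin, had 19.4, 19.5 and 18.7 in P19 NTES7, 11.5, 12.5 and 12.7 in P19 and 34.2, 39.5 and 25.1 in R1, and P19 minus R1 was -1.41 ± 0.14 (adjusted p = 3.1e-06). It was also higher in P19 NTES7 than in P19 by 0.65 ± 0.14 (adjusted p = 0.0046). All P19 arrays of Cryab lay below the array median. Clpb, a mitochondrial disaggregase, had 222, 217 and 191 in P19 NTES7, 261, 275 and 267 in P19 and 119, 117 and 133 in R1, with P19 minus R1 at 1.12 ± 0.10 (adjusted p = 9.46e-07) and P19 NTES7 minus R1 at 0.77 ± 0.10 (adjusted p = 5.15e-05).

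The ER folding list held 20 genes, of which 1 passed in P19 NTES7 minus P19, 6 in P19 minus R1 (5 higher, 1 lower) and 7 in P19 NTES7 minus R1, all higher, against 11.3%, 23.0% and 17.1% of all probe sets. The gene that passed in P19 NTES7 minus P19 was Ppp1r15a, which reverses the translation block of stress, at 0.92 ± 0.10 (adjusted p = 1.55e-05). Herpud1, which works in ER-associated degradation, had 82.9, 77.1 and 73.3 in P19 NTES7, 87.1, 78.3 and 84.4 in P19 and 36.8, 31.3 and 38.3 in R1. It was called against R1 in P19 NTES7, at 1.14 ± 0.10 (adjusted p = 3.09e-06), and in P19, at 1.24 ± 0.10 (adjusted p = 7.02e-07). Ddit3 (CHOP), a stress transcription factor, had 89.8, 66.2 and 62.1 in P19 NTES7, 38.1, 27.6 and 35.4 in P19 and 8.85, 11.3 and 34.1 in R1. It was called in P19 NTES7 minus R1, at 2.25 ± 0.36 (adjusted p = 0.000378), and R1 replicate 3 lay above the other R1 arrays. Xbp1, the target of IRE1, averaged 63.5 ± 3.34 in P19 NTES7, 72.4 ± 1.39 in P19 and 65.4 ± 5.47 in R1 and did not pass.

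Of 8 further mitochondrial proteases and chaperones, Htra2, a protease of the intermembrane space, was called in P19 minus R1, at 1.004 ± 0.13 (adjusted p = 3.28e-05), and was lower in P19 NTES7 than in P19, with a log2 difference of -0.81 ± 0.13 (adjusted p = 0.000508). Its intensity was 39.6, 34.5 and 48.3 in P19 NTES7, 79.03, 71.8 and 63.1 in P19 and 36.6, 36.2 and 33.5 in R1. The P19 arrays lay above those of both other lines. Of 3 J-domain proteins under other symbols, Sec63, a part of the ER import channel, passed in P19 minus R1 at 0.54 ± 0.10 (adjusted p = 0.000594).

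**Figure D4:**
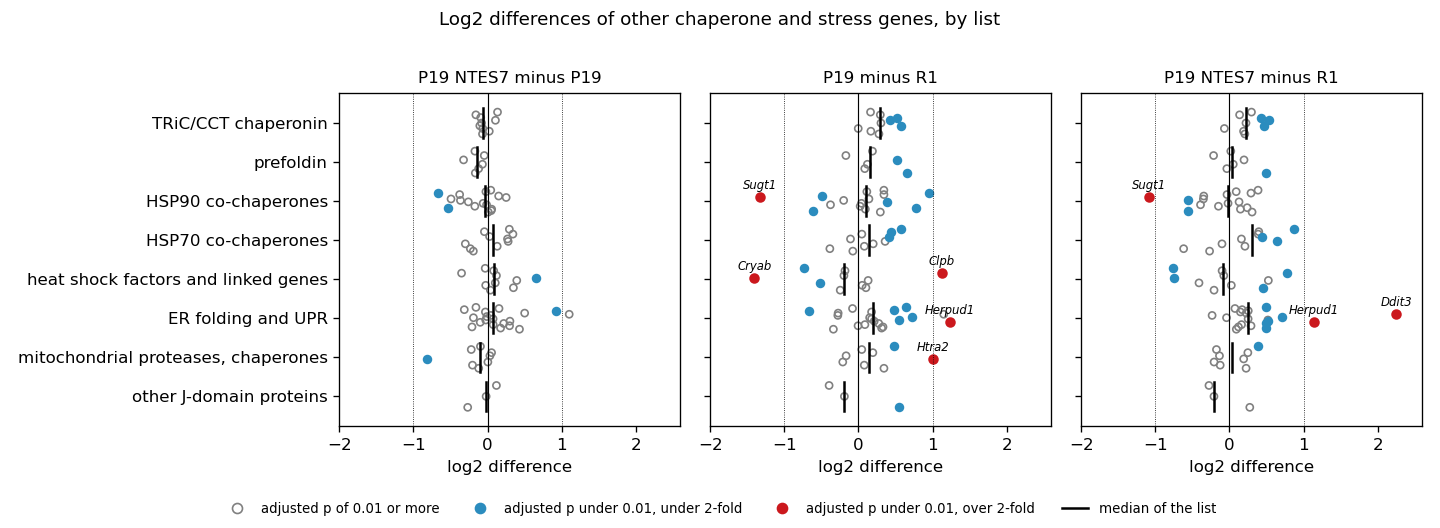
Log2 differences of genes in 8 lists of other chaperone and stress genes for P19 NTES7 minus P19, P19 minus R1 and P19 NTES7 minus R1. Points are genes, black bars are the list medians and the named points are called genes. Ddit3 lies farthest out, at 2.25 in P19 NTES7 minus R1.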

How the data were processed

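Total RNA (3 arrays each of P19 NTES7, P19 and R1) was labelled with biotin and hybridised to the Affymetrix Gene 1.0 ST array. Per the labels and the methods, the authors made the deposited intensity values with RMA; they are on the linear scale and per probe set. Array medians ran between 16.5 and 17.5, and arrays of 1 line correlated at 0.9893 or more. The number of arrays limits the precision, and p-values measure the spread between these samples. Log2 intensities of all 28853 probe sets were fitted over all 9 arrays with limma (version 3.58.1, R version 4.3.3), and p-values were Benjamini-Hochberg adjusted over all probe sets of a comparison. Every adjusted p in the text is of this kind. Errors are SDs of levels and standard errors of log2 differences. Probe sets with 1 gene symbol numbered 21789, with several 1621 and with none 5443; genes were named only from the first kind. The members and all gene lists were chosen with earlier results of these data known. The text gives every called member, the main chaperones, the extremes of each family and the called genes of each other chaperone or stress list. Marker lists are given by sums and counts, with some genes named after their values were seen. Replicate numbers did not pair the arrays. Promoter windows came from RefSeq (GRCm38.p6), and no genome or protein sequence was used here. The fit was tested on simulated data.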

Additional observations from a re-analysis of the deposited data

How the results depend on the processing

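The number of called members was 2 in P19 NTES7 minus P19 under every alternative run, and they were Dnajb9 and Hspb8 each time. It ran between 3 and 5 in P19 minus R1 and between 2 and 3 in P19 NTES7 minus R1. With log2(value + 16), Hspa4l was no longer called in P19 minus R1 and Hspb8 no longer in P19 NTES7 minus R1; Hspa12a was added without P19 replicate 1, and Dnajc22 without P19 replicate 2 or R1 replicate 3, all in P19 minus R1. The count of members past the adjusted p alone in P19 NTES7 minus P19 was the least stable: 8 as reported, 5 with the replicate number as a block, and between 4 and 11 with 1 array left out, lowest without P19 replicate 1 and highest without R1 replicate 3. The numbers do not pair the arrays, whose same-numbered deviations correlated between -0.223 and 0.0403, and in P19 minus R1 and P19 NTES7 minus R1 the block left 14 and 12 members past the p. Of the 34 member differences past the p, 25 stayed past it under every alternative run on them, and none changed sign. Of 574 alternative values, 531 stayed past the p and 43 did not. Of the 188 member differences not past it, 20 passed under at least 1 alternative and none was called. The one-way test named in the methods gave the same counts of called members. Levels near or below the array median limit what can be said of 10 members that never rose above it.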
